A study of Pseudotaxus chienii and Amentotaxus argotaenia and Torreya grandis with 9 samples.

Results

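Among the transcript features that all libraries of 3 yew-family trees shared, 127 were low in Amentotaxus argotaenia relative to both Pseudotaxus chienii and Torreya grandis. A feature is a gene-level sequence of a Trinity assembly, which joins reads into transcripts without a genome. Levels are given in TPM, which corrects for transcript length and adds up to the same total in every library. The features were chosen by their measured levels: at 1 TPM or more in all 9 libraries, with the lowest P. chienii or T. grandis library at least 3 times the highest A. argotaenia library, and with the A. argotaenia mean at least 5% of the mean of each other species. The 127 are 1.12% of the 11382 features that all 9 libraries held at 1 TPM or more, out of 88609 listed, and belong to 126 Trinity components, the clusters named by an ID without its gene number. The rule used the A. argotaenia levels against both others, so these differences are given as a description with no test.

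The groups were A. argotaenia, labelled as not producing taxol, P. chienii, labelled as producing it, and T. grandis, labelled as not producing it, with 3 libraries each. All were fresh twigs, wood and needles together, of plants aged 3 years and grown under shared conditions of temperature, light and humidity, and no group carried a treatment. Whether a species' libraries were separate trees is not stated in the labels, and p-values here reflect only the spread between these libraries, possibly a technical one. The files pair no feature ID with a gene name and hold no sequence, so the roles of the features are not given and the tissue was not checked against its markers. TPM keeps no read count, so depth is unknown and no counting interval is given.

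As background, Taxaceae are conifers whose seeds sit in a fleshy aril, and taxol is a diterpenoid that yews make from geranylgeranyl diphosphate through taxadiene. In an assembly over several species, one gene can appear as a single feature that reads of all species match, or as several features that each match reads of one species. A low level at a feature can therefore go with a high level at another feature of its component, and both were examined.

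The libraries of a species correlated across the tested features at 0.911 to 0.963 (Pearson's r on log2(TPM + 1); features are not independent replicates), and 1 library in each species had the lower values, namely A. argotaenia replicate 2, P. chienii replicate 1 and T. grandis replicate 3. Features found almost only in another species served as a rough guide to stray signal, although the source of their remaining level was not tested. At features with at least 100 TPM in P. chienii and under 2% of that in both others, the A. argotaenia libraries stood at medians of 0.12% to 0.161% of the P. chienii mean. At such features of T. grandis they stood at 0.136% to 0.296%. The 95th percentiles were 0.493% to 0.539% and 0.918% to 1.27% in the same order. The limit of 2% used to pick these features bounds all these values. The 127 features stood in A. argotaenia at 5.10% to 27.7% of the P. chienii mean and at 5.17% to 28.5% of the T. grandis mean. The rule's lower limit of 5% of each mean places its features above these medians, so their order is fixed by the choice and supports nothing.

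The 127 features together summed to 1826, 1912 and 1819 TPM in the A. argotaenia libraries, to 15184, 15969 and 15580 TPM in the P. chienii libraries and to 10773, 12006 and 11289 TPM in the T. grandis libraries. They made up 0.185% ± 0.00519 of the TPM in A. argotaenia (SD, n = 3), 1.56% ± 0.0393 in P. chienii and 1.14% ± 0.0619 in T. grandis. The rule fixes that the sum is low in all 3 A. argotaenia libraries, and nothing is read from that. The sums of these 3 libraries lay close together. In whole twigs, these sums do not tell apart fewer cells of a type, less RNA per cell, and reads that match another feature of the same component.

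The median level of the 127 features was 4.63, 4.43 and 4.55 TPM in the A. argotaenia libraries, against 35.8, 34.6 and 33.3 TPM for P. chienii and 32.5, 31.6 and 32.9 TPM for T. grandis. Over all 11382 shared features the library medians lay between 11.8 and 13.1 TPM in A. argotaenia, 13.4 and 14.01 TPM for P. chienii and 12.4 and 14.1 TPM for T. grandis. The lowered features were thus above the median shared feature in P. chienii and T. grandis, to which the rule contributes. It asks each of those 6 libraries for at least 3 times the feature's own highest A. argotaenia library, which is never under 3 TPM. Their A. argotaenia means ran from 1.19 to 316 TPM, with 67 of 127 under 5 TPM, and 35 were under 2 TPM in at least 1 A. argotaenia library. The P. chienii means ran from 6.17 to 4173 TPM and the T. grandis means from 5.71 to 2019 TPM.

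**Figure D1:**
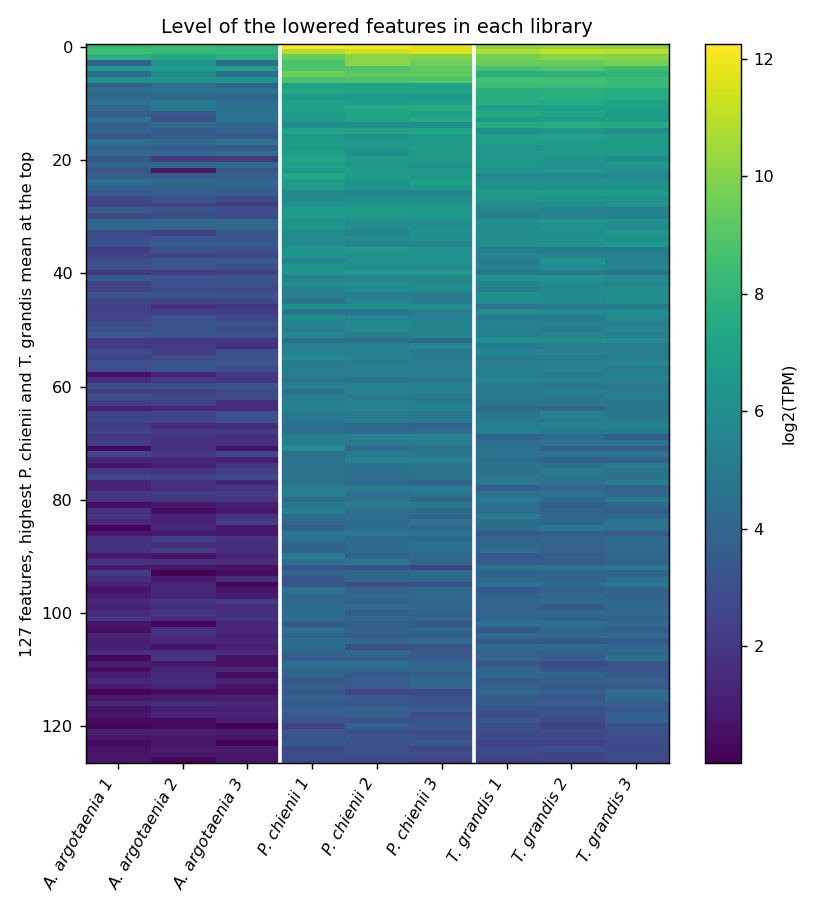
Level of each of the 127 lowered features (rows, ordered by the mean of the P. chienii and T. grandis libraries) in each of the 9 libraries (columns), as log2(TPM) in colour. The 3 A. argotaenia columns are darker than the 6 others throughout, which the choice of features fixes, and the P. chienii and T. grandis columns are alike in most rows.

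The A. argotaenia mean was at a median of 15.6% of the P. chienii mean, with quartiles of 11.5% and 19.9%. It was at a median of 16.2% of the T. grandis mean, with quartiles of 12.2% and 21.1%. Over all shared features the same medians were 89.6% and 94.8%. Under 10% of P. chienii stood 27 features and under 10% of T. grandis 23, while 7 were under 10% of both. Of the 127, all were called lower in A. argotaenia than in both other species by limma (at least 2-fold, adjusted p under 0.05), against 2.21% of all 75926 features tested and 7.59% of the shared features. The rule fixes that count, and nothing is read from it.

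**Figure D2:**
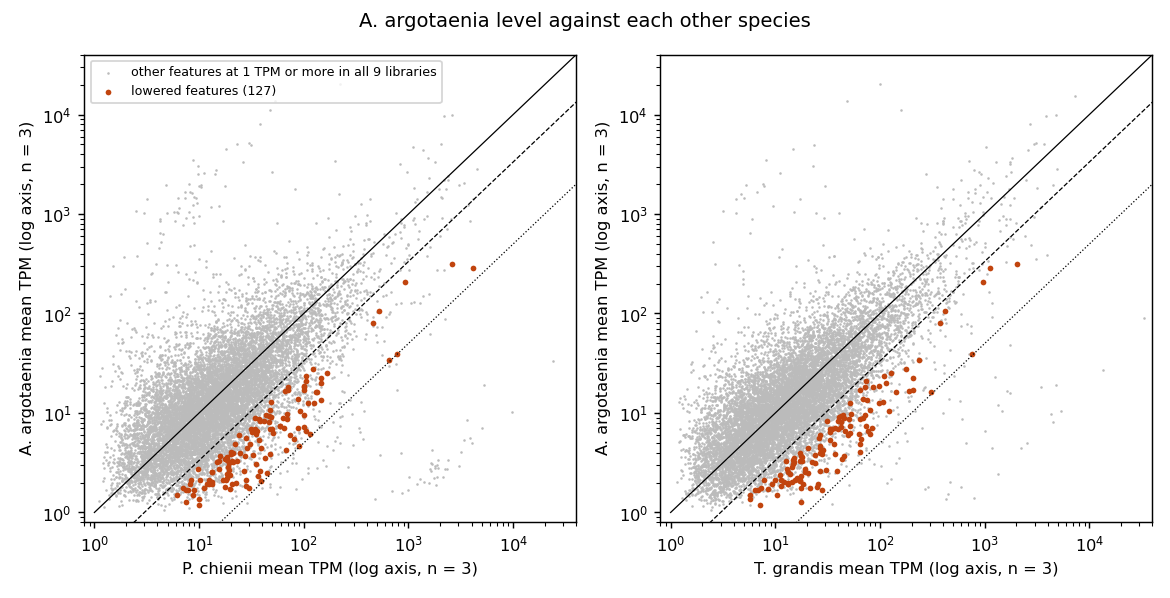
Mean TPM in A. argotaenia against mean TPM in P. chienii (left) and T. grandis (right), n = 3 libraries each, for the shared features, with the 127 lowered features in colour. The solid line marks equal levels, the dashed line a level 3 times lower and the dotted line 5%; the coloured points lie between the lower pair of lines in both panels by the rule.

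The ratio of the highest A. argotaenia library to the lowest other library, on which the rule turned, ranged from 10.1% to 33.3% with a median of 27.1%. It was 30% or more in 29 features and under 20% in 24. The lowest ratio was that of TRINITY_DN49743_c1_g1, at 5.83, 5.68 and 4.87 TPM in A. argotaenia, against 72.9, 87.04 and 82.96 TPM for P. chienii and 57.5, 61.01 and 80.6 TPM for T. grandis. Just inside the limit was TRINITY_DN45868_c0_g1, whose highest A. argotaenia library had 23.3 TPM and whose lowest other library had 69.98 TPM. Just outside it was TRINITY_DN49992_c1_g1, with 21.99 TPM in its highest A. argotaenia library and 65.9 TPM in its lowest other library. A further 33 features met the limit of 3 times and were left out because their A. argotaenia mean was under 5% of another mean.

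By the mean of the 6 P. chienii and T. grandis libraries, the most abundant of the lowered features was TRINITY_DN43235_c0_g2, at 281, 302 and 268 TPM in A. argotaenia, against 4866, 4310 and 3344 TPM for P. chienii and 1067, 1226 and 1093 TPM for T. grandis. The 3 species formed separate steps, with A. argotaenia lowest and P. chienii highest. TRINITY_DN49017_c0_g1 was at 371, 303 and 274 TPM in A. argotaenia, against 1871, 2622 and 3314 TPM for P. chienii and 1773, 2315 and 1969 TPM for T. grandis. Here the P. chienii and T. grandis libraries overlapped, and those of A. argotaenia lay far below both. Its mean was above that of TRINITY_DN43235_c0_g2 in A. argotaenia and in T. grandis.

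TRINITY_DN39695_c1_g1 had a similar shape, at 206, 189 and 229 TPM in A. argotaenia, against 728, 1069 and 976 TPM for P. chienii and 793, 1059 and 1010 TPM for T. grandis. These 3 features held 43.6% of the summed TPM of the 127 in A. argotaenia, 49.4% in P. chienii and 36.1% in T. grandis, so sums over the list rest to a large part on them. TRINITY_DN43511_c0_g2 was at 96.7, 109 and 116 TPM in A. argotaenia, against 475, 476 and 625 TPM for P. chienii and 406, 505 and 351 TPM for T. grandis.

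A pair of abundant features had 1 high library among those of A. argotaenia. TRINITY_DN47430_c1_g1 was at 14.2, 82.6 and 21.02 TPM in A. argotaenia, against 434, 1116 and 760 TPM for P. chienii and 710, 681 and 886 TPM for T. grandis. TRINITY_DN41435_c0_g1 was at 21.8, 58.9 and 22.2 TPM in A. argotaenia, against 743, 610 and 615 TPM for P. chienii and 208, 238 and 257 TPM for T. grandis. In both, A. argotaenia replicate 2 was more than 2 times either other library of its species and still below every library of the other species. It was at 19.04% of the lowest of these for TRINITY_DN47430_c1_g1 and at 28.3% for TRINITY_DN41435_c0_g1.

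**Figure D3:**
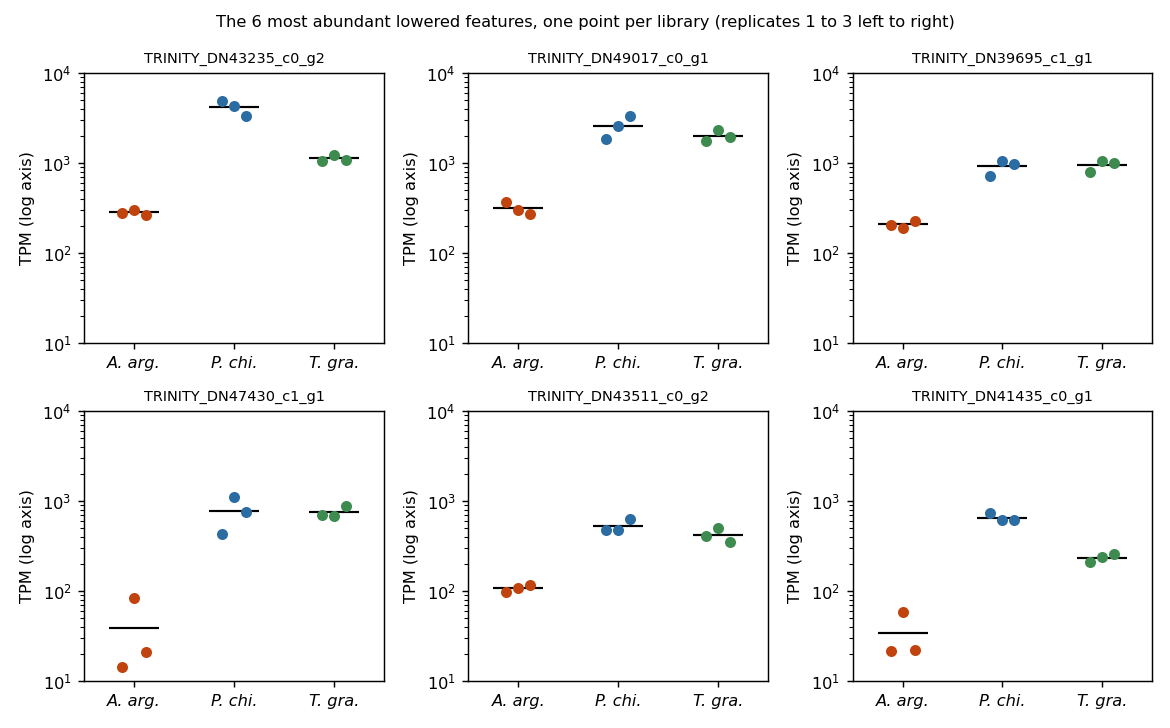
TPM on a log axis of the 6 lowered features most abundant by the mean of the P. chienii and T. grandis libraries, with 1 point per library and a line at the mean of the 3 libraries of a species. All A. argotaenia points lie at or below 371 TPM, and in the panels of TRINITY_DN47430_c1_g1 and TRINITY_DN41435_c0_g1 replicate 2 stands above the other A. argotaenia points.

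Among the 31 features that were alone in their component, the most abundant by the same mean was TRINITY_DN37665_c0_g1. It was at 79.5, 81.3 and 79.5 TPM in A. argotaenia, against 420, 465 and 487 TPM for P. chienii and 389, 401 and 326 TPM for T. grandis. The A. argotaenia libraries of this feature varied by 1.31% (coefficient of variation), the P. chienii libraries by 7.49% and those of T. grandis by 10.9%.

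Within species, the 127 features varied by a median of 16.2% in A. argotaenia, 12.8% in P. chienii and 12.3% in T. grandis (coefficient of variation, n = 3). Over all shared features the medians were 17.9%, 14.4% and 15.03%. The rule sets the highest A. argotaenia library against the lowest of the others, so features with 1 deviating library were less likely to be chosen. The highest A. argotaenia library was more than 2 times the lowest in 20 features, of which 9 had replicate 2 highest and 9 had replicate 2 lowest. By coefficient of variation, the widest spreads between A. argotaenia libraries after that of TRINITY_DN47430_c1_g1 were those of TRINITY_DN43361_c0_g1, at 4.34, 1.01 and 1.35 TPM in A. argotaenia, and TRINITY_DN45422_c1_g2, at 8.87, 1.56 and 9.35 TPM. In the first, replicate 1 was high, and in the second, replicate 2 was low. Over all 127 features, replicate 2 was the highest A. argotaenia library in 51 and the lowest in 39. With A. argotaenia replicate 2 left out, the rule chose 201 features, 123 of the 127 among them. Without replicate 1 it chose 160 and without replicate 3 it chose 157.

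The comparison of P. chienii with T. grandis asked whether the 127 features, alike in being low in A. argotaenia, also differed between the taxol-producing species and the other non-producing one. The rule did not use this difference, although its limits allow the 2 means to differ by at most 6.67-fold. The test was limma on log2(TPM + 1) over all 75926 features that reached 1 TPM in 3 or more libraries, and a call needed a difference of 2-fold or more with an adjusted p under 0.05 (Benjamini-Hochberg).

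Of the 127 features, 14 were called higher in P. chienii than in T. grandis, and 10 were called lower. These 24 are 18.9% of the list. The share called was 56.1% of all features tested, 36.2% of the shared features, and 30.8% of the 8551 shared features whose lowest P. chienii or T. grandis library had at least 3 TPM and whose means lay within the 6.67-fold. In the last set 16.6% were higher and 14.2% lower in P. chienii, against 11% and 7.87% of the list. The list's share was below each of these, but the rule asks for a high level in each of the 6 libraries, which itself bears on how far the 2 species can differ, and no test of the list was made. The called log2 differences ran from 1.02 to 1.87 among features higher in P. chienii, and from -1.72 to -1.02 among those lower. Without a minimum fold, 27 were higher and 23 lower, and none of the 127 reached a 4-fold difference by limma. Shares over all features were not counted at these fold limits, so nothing is read from these counts. An unadjusted p under 0.05 (limma) was found for 56 of the 127. It was found for 47387 of all 75926 features tested, 7281 of the 11382 shared features and 5383 of the 8551.

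The largest rise was that of TRINITY_DN43235_c0_g2, whose library values are given above. Its level of 4173 ± 770 TPM in P. chienii against 1129 ± 85.4 TPM in T. grandis (SD, n = 3) gave a log2 difference of 1.87 ± 0.16 (SE; adjusted p = 9.22e-06, limma). TRINITY_DN38962_c0_g1, alone in its component, was at 73.97, 94.06 and 103 TPM in P. chienii, against 26.3, 29.4 and 24.3 TPM in T. grandis. It rose in P. chienii by a log2 difference of 1.71 ± 0.16 (SE; adjusted p = 1.73e-05, limma), and its A. argotaenia libraries held 4, 4.49 and 5.42 TPM. At either feature the libraries of the pair of species did not overlap, which was a condition for naming them.

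The largest fall was that of TRINITY_DN44870_c1_g1, at 9.69, 8.5 and 5.43 TPM in P. chienii, against 24.9, 27.5 and 30.9 TPM in T. grandis. Its log2 difference was -1.72 ± 0.20 (SE; adjusted p = 6.62e-05, limma), and A. argotaenia held it at 1.79, 1.72 and 1.48 TPM. TRINITY_DN35468_c2_g2 was at 20.4, 20.5 and 19.8 TPM in P. chienii, against 71.6, 65.9 and 55.9 TPM in T. grandis. It fell in P. chienii by a log2 difference of -1.62 ± 0.12 (SE; adjusted p = 3.68e-06, limma), and A. argotaenia held it at 4.27, 3.87 and 3.94 TPM.

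Over the 127 features the median log2 difference between P. chienii and T. grandis was 0.11, against 0.071 over all shared features and 0.00 over all features tested. The median size of the difference, regardless of sign, was 0.40 for the list, 0.73 for the shared features and 0.66 for the 8551 features. The 8551 were not held to the rule's limits relative to each feature's own A. argotaenia level. Those limits bear on this size and on the shares without overlap below. The means of the 2 species were within 1.5-fold in 85 of 127 features, or 66.9%, against 37.7% of the shared features. The shared features are not held to the rule's limits, which bear on this share, and it was not counted over the 8551. The libraries did not overlap with P. chienii higher in 36 of 127 features, or 28.3%, against 35.5% of the 8551, and with P. chienii lower in 26, or 20.5%, against 32.8%. Across the 127 features, log2 levels in P. chienii and T. grandis correlated at 0.907 (Pearson's r), those in A. argotaenia and P. chienii at 0.921 and those in A. argotaenia and T. grandis at 0.927. Over all shared features the same values were 0.625, 0.616 and 0.730. These values run across features and follow in part from the rule, which keeps the species means within fixed ratios.

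**Figure D4:**
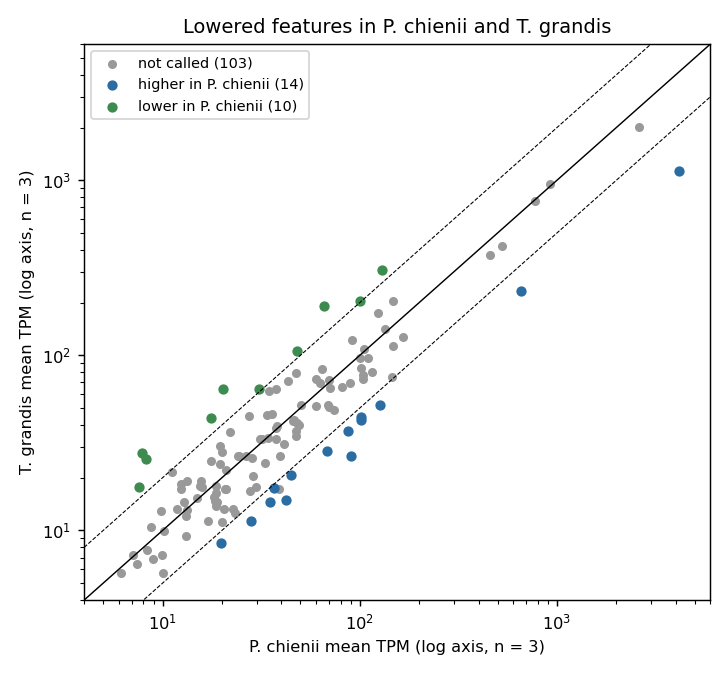
Mean TPM of the 127 lowered features in P. chienii (x) and T. grandis (y), n = 3 libraries each, on log axes. The solid line marks equal means and the dashed lines a 2-fold difference; the 14 features called higher in P. chienii lie on the P. chienii side of the solid line, the 10 called lower lie on the other, and most of the 127 were not called.

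Each of 96 features shared its component with at least 1 other feature, and these components were summed to see where the A. argotaenia level lay. As the rule used the same contrast, this is a description with no test, and no sequences were compared. Of the 127 features, 24.4% were alone in their component, against 35.2% of all shared features. In the 96, the lowered feature held a median of 49.8% of its component in A. argotaenia, 91.9% in P. chienii and 85.03% in T. grandis. It was the most abundant feature of its component in 49 of 96 in A. argotaenia, 84 in P. chienii and 80 in T. grandis. Of the 7372 shared features in components of several, 75.4% led in A. argotaenia, 75.2% in P. chienii and 76.8% in T. grandis. The rule asks for a low level in A. argotaenia, which bears on the count there. In 32 components the lowered feature led in P. chienii and T. grandis and another feature led in A. argotaenia, and in 41 it led in all 3 species. These joint counts were not made over the shared features, and nothing is read from them.

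Summing moved the A. argotaenia level up in many of these components and left it low in others. The component sum still met the limit of 3 times in 39 of the 96, and 31 more had all A. argotaenia libraries below all others by less than that. In 26 the A. argotaenia libraries overlapped the others or lay above them, and in 7 every A. argotaenia library was above every other. The median A. argotaenia sum was 30.4% of the lower of the other species' means, against 18.8% for the features alone, and the range was 5.25% to 2764%. In 23 components the other features together were under 1 TPM in every A. argotaenia library. In 26, or 27.1% of the 96, the other features were higher in every A. argotaenia library than in any other library, against 22.5% of the 7372 shared features in components of several. Counting the 31 features that are alone, 70 of 127 met the limit of 3 times as whole components.

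TRINITY_DN43235_c0, a component of 8 features, showed the largest shift in TPM. TRINITY_DN43235_c0_g3, singled out after its values were seen, was at 14837, 9868 and 8814 TPM in A. argotaenia, against 8.41, 84.04 and 49.8 TPM for P. chienii and 233, 163 and 84.9 TPM for T. grandis. The lowered TRINITY_DN43235_c0_g2 ran the opposite way and held 2.47% of the component in A. argotaenia, 98.5% in P. chienii and 82.6% in T. grandis. Its features together summed to 11476 ± 3211 TPM in A. argotaenia (SD, n = 3), 4239 ± 756 TPM for P. chienii and 1366 ± 99.9 TPM for T. grandis. It was thus highest in the species in which its listed feature was lowest.

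TRINITY_DN47598_c0 was similar at a lower level. Its lowered feature TRINITY_DN47598_c0_g1 was at 1.51, 1.97 and 2.36 TPM in A. argotaenia, against 14.4, 13.8 and 11.5 TPM for P. chienii and 9.28, 8.55 and 10.08 TPM for T. grandis. The other feature, TRINITY_DN47598_c0_g2, was at 451, 351 and 461 TPM in A. argotaenia, against 0, 3.16 and 3.1 TPM for P. chienii and 97.9, 65.3 and 65.3 TPM for T. grandis. TRINITY_DN35468_c2 holds TRINITY_DN35468_c2_g2, which fell in P. chienii as given above. Its TRINITY_DN35468_c2_g1, not picked by the rule for naming features, was at 61.7, 63.5 and 62.7 TPM in A. argotaenia and at no more than 1.48 TPM in any other library. That component summed to 66.7 ± 0.676 TPM in A. argotaenia, 20.6 ± 0.254 TPM for P. chienii and 64.9 ± 8.64 TPM for T. grandis (SD, n = 3), so its low species was P. chienii.

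TRINITY_DN40210_c3 had a different leading feature in P. chienii. The lowered TRINITY_DN40210_c3_g1 was a minor feature of it in every species, at 1.89, 1.59 and 2.42 TPM in A. argotaenia, against 34.5, 15.2 and 18.6 TPM for P. chienii and 10.1, 12.9 and 16.9 TPM for T. grandis. Its features together summed to 612 ± 225 TPM in A. argotaenia, 433 ± 35.9 TPM for P. chienii and 445 ± 12.7 TPM for T. grandis (SD, n = 3).

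TRINITY_DN49017_c0 and TRINITY_DN39695_c1 stayed low as sums. The first was at 323 ± 45.9 TPM in A. argotaenia, 2880 ± 528 TPM for P. chienii and 2028 ± 275 TPM for T. grandis. The second was at 221 ± 22.7 TPM in A. argotaenia, 924 ± 176 TPM for P. chienii and 954 ± 141 TPM for T. grandis. Its highest A. argotaenia library was at 33.9% of its lowest other library, so this sum just missed the limit of 3 times. The single component with 2 lowered features was TRINITY_DN45422_c1, at 30.7 ± 5.37 TPM in A. argotaenia, 210 ± 13.1 TPM for P. chienii and 282 ± 31.4 TPM for T. grandis. Its TRINITY_DN45422_c1_g1 led in A. argotaenia and T. grandis and its TRINITY_DN45422_c1_g2 led in P. chienii.

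The sums over all 126 components were 15895 ± 2980 TPM in A. argotaenia, 17493 ± 250 TPM for P. chienii and 14643 ± 620 TPM for T. grandis (SD, n = 3), so that the low sum of the features was not seen in the sum of their components. One component decided this. Without TRINITY_DN43235_c0 the sums were 4419 ± 248 TPM in A. argotaenia, 13254 ± 790 TPM for P. chienii and 13277 ± 612 TPM for T. grandis. The lowered features of these 125 components alone summed to 1569 ± 35.7 TPM, 11405 ± 984 TPM and 10227 ± 538 TPM in the same order. The 31 features alone in their component summed to 275 ± 8.82 TPM in A. argotaenia, 1761 ± 25.5 TPM for P. chienii and 1601 ± 76.7 TPM for T. grandis.

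**Figure D5:**
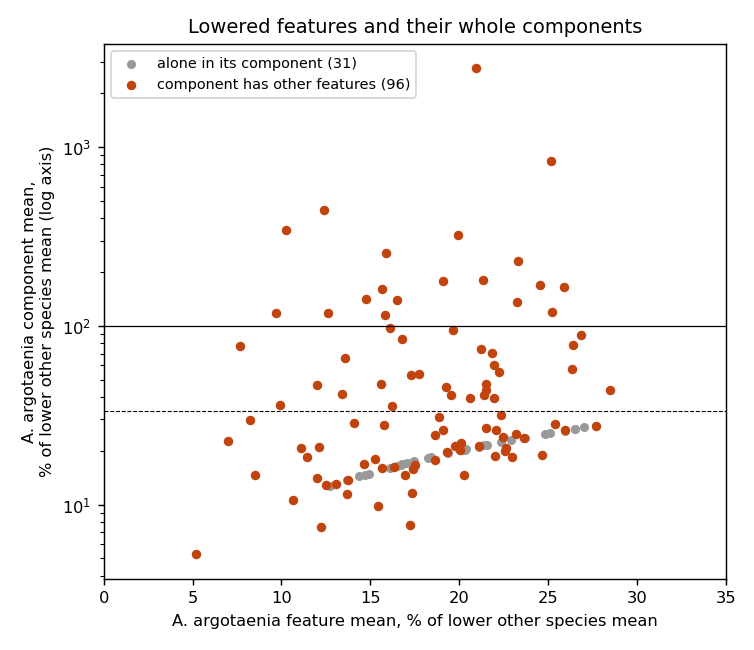
A. argotaenia mean of each lowered feature (x) and of its whole component (y, log axis), each as a percent of the lower of the P. chienii and T. grandis means. Grey points are the 31 features alone in their component; of the 96 others, points above the dashed line, at a level 3 times lower, have a component mean closer to the other species, and points above the solid line at 100% have a component mean above the lower other species.

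The same rule turned to the other species gave 138 features lowered in P. chienii and 81 lowered in T. grandis, counts set side by side without a test. In those lists 19.6% and 29.6% of the features were alone in their component, against the 24.4% given above for A. argotaenia. One component held a feature of the A. argotaenia list and one of the P. chienii list, and no component did so with the T. grandis list. Of the 150 shared features whose lowest A. argotaenia library was at least 3 times every other library, 1 lay in a component of the 127, namely TRINITY_DN43235_c0_g3. Features under 1 TPM in any library, such as TRINITY_DN47598_c0_g2, could not enter this count.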

How the data were processed

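RNA-seq of twigs from 9 libraries was used. Per the labels and feature IDs, a Trinity assembly was made; its input, the quantifier, versions and filters are not given in the sources used. The authors deposited 1 table per library, read here as TPM because each sums to between 999890 and 999947 (the headers name no unit). TPM holds no depth, so counts were not tested.

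The members and lists were chosen with earlier results of these data known. The test of P. chienii against T. grandis was run on log2(TPM + 1) by limma 3.58.1 (R 4.3.3), its variance prior following mean intensity, in 1 fit of all 9 libraries with species as the only term, over 75926 features; tests were two-sided. On simulated data for that comparison with 75926 features, the share of altered features called was 20.3% at a true 2-fold difference, 68.9% at 4-fold and 92.5% at 8-fold, with 5 false calls. Only 59, 61 and 80 features were altered at these folds, while 42560 were called in the data. The adjusted p therefore acts differently there, and these shares and false calls do not carry over. A call also needs an estimated difference of 2-fold, which itself limits calls at a true 2-fold difference. Other values used Python 3.11.15, pandas 2.3.3, numpy 2.4.6 and scipy 1.17.1. Trimmed-mean scaling used the mean log2 ratio over shared features with 30% trimmed at each end.

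Lowered features were named by rule: the 6 most abundant, the extremes of the chosen ratio, the largest changed P. chienii to T. grandis differences at 10 TPM or more without overlap, the smallest such differences, components with most members, the most variable in A. argotaenia, those with the highest other features, and the most abundant that are alone. As no ID has a gene name, 2 rises and 2 falls are named and the smallest differences are given only among the alternatives. Lists by pathway or cell type need gene names and were not counted.

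Alternatives were other limits of the rule, pseudocounts of 0.1 and 5, trimmed-mean and quantile scaling, other filters, no trend, 2 species only, a replicate block, no fold limit, at least 4-fold, component sums and leaving out libraries. The background of 8551 features was chosen after seeing the data.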

Additional observations from a re-analysis of the deposited data

How the results depend on the processing

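The number of lowered features follows the limits chosen. It was 412 with a limit of 2 times in place of 3 times, 49 with 4 times, 24 with 5 times, 52 with at least 5 TPM in all libraries, 84 with an A. argotaenia mean of at least 10%, and 245 without the 3 libraries that stood apart. Leaving out 1 library in turn gave 133 to 201, since fewer libraries make the rule easier to meet. Trimmed-mean scaling gave 108, of which 101 were among the 127, and quantile normalization gave 107, of which 90 were. As component sums 160 components met the rule, 65 of them among the 126. Trimmed-mean scaling moved the median log2 difference of shared features between A. argotaenia and P. chienii to -0.0019, from -0.15 as deposited. The median A. argotaenia level was then 17.5% of P. chienii; with quantile normalization it was 14.2% of P. chienii and 14.7% of T. grandis. Without 1 A. argotaenia library it was 15.1% to 16.2% and 16.5% to 16.8%. Members whose component met the limit numbered 32 at 4 times, 39 over components of several features, and 72 to 74 without 1 A. argotaenia library.

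Between P. chienii and T. grandis, 22 to 24 features were called without 1 library, 13 to 14 higher and 9 to 11 lower in P. chienii. The count was 50 without a minimum fold, with 27 higher and 23 lower, and 0 at 4-fold in total, 0 higher and 0 lower. Shares over all features were not counted under these settings. The median log2 difference was 0.028 with trimmed-mean scaling, 0.18 without the 3 libraries that stood apart, and 0.093 to 0.16 without 1 library. The cause was not tested. Deviations of same-numbered libraries from their species means correlated at -0.29, 0.19 and -0.21. Deviations from a mean of 3 libraries are tied to each other, so these values do not settle whether replicate numbers pair the libraries. No P. chienii library correlated best with the T. grandis library of its own number. The highest value was 0.40, between P. chienii replicate 1 and T. grandis replicate 3, which each stood apart within their species. With the replicate block 24 features were called, 14 higher and 10 lower. Of 28 features named by the rule, 1 lost its call under a setting other than 4-fold, and 4 gained a call under some setting. Among the 28, 6 changed sign somewhere, none of them called in the main fit. With trimmed-mean scaling TRINITY_DN39560_c0_g2 was at -0.064 and TRINITY_DN45382_c0_g1 at -0.072, and with quantile normalization TRINITY_DN39560_c0_g2 was at -0.047. Without the 3 libraries that stood apart, TRINITY_DN38470_c0_g1 was at 0.099, TRINITY_DN39695_c1_g1 at 0.16, TRINITY_DN43998_c0_g1 at 0.19, TRINITY_DN45382_c0_g1 at -0.19 and TRINITY_DN47430_c1_g1 at 0.41. Without 1 library the values ran from -0.11 to 0.074 for TRINITY_DN38470_c0_g1, -0.084 to 0.17 for TRINITY_DN39560_c0_g2, -0.18 to 0.11 for TRINITY_DN39695_c1_g1, -0.20 to 0.17 for TRINITY_DN43998_c0_g1, -0.18 to 0.24 for TRINITY_DN45382_c0_g1 and -0.39 to 0.29 for TRINITY_DN47430_c1_g1.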
